A study of Homo sapiens with 12 samples.

Results

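Ribosome biogenesis was followed through 34 genes, chosen by symbol as nucleolar rRNA processing factors, proteins of small nucleolar ribonucleoproteins (snoRNPs) and polymerase I machinery, out of 19215 gene symbols in the authors' deposited table. All 34 had a value in each of its 3 comparisons. The RNA was that of 12 C28/I2 cultures (C28/I2 is a human chondrocyte line made immortal), 3 in each of 4 groups, kept in serum-containing medium and harvested after 48 h. Controls, called DMSO, were given the solvent at 0.5%. Cultures called SDF1 were given 50 nM of SDF-1α, a chemokine that binds the receptor CXCR4. The SDF1_AS4 group received 50 nM SDF-1α and 10 µM astragaloside IV, a plant saponin. The SDF1_SKHS group received 50 nM SDF-1α and 1% SKHS, a traditional Chinese herbal formula. The labels name DMSO in the first group alone and no vehicle for either product, so effects of the solvent and of SDF-1α or a product cannot be told apart. According to the series text, the question was whether natural products that antagonise CXCR4 inhibit signalling induced by the chemokine.

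Ribosomes are built in the nucleolus, where RNA polymerase I copies the ribosomal DNA into a long precursor. Box C/D and box H/ACA snoRNPs guide the methylation and pseudouridylation of that precursor, and separate sets of assembly factors cut, fold and export the small and large subunits. The output follows growth signals in most cells, and chondrocytes depend on it for the secretion of matrix. The sequencing measured mRNA of the factors, not rRNA or ribosomes, so the values below say nothing of how much rRNA was made.

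The authors' deposited table gives 1 log2 fold change, p-value and adjusted p per gene and comparison, and no value per culture, so the spread of single cultures could not be shown and the depth is unknown. A value after ± is the standard error implied by the fold change and its p-value, and it ran from 0.0641 to 0.151 over the 34 genes and the 3 comparisons. A gene is called higher or lower at an adjusted p under 0.05, from DESeq2 as run by the authors with Benjamini-Hochberg adjustment over all genes tested. Nothing says that the 3 cultures of a group were grown independently, so a p-value here reflects no more than sample-to-sample spread within 1 cell line. In bulk RNA a change in every cell and a change in the share of some cells cannot be told apart, and a change common to all transcripts of a cell cannot be seen. Of 12 chondrocyte markers, 11 had a value in SDF1 over DMSO, but only ACAN, SOX9 and COL11A2 had an implied error no larger than 0.3. COL2A1, the defining collagen of cartilage, had one of 2.68 in that comparison, so the chondrocyte label rests on few markers here. Of 4 fibroblast collagens and matrix genes, 3 were measured that precisely, as were 3 of 8 markers of other cell types. Some of these moved with the groups in the authors' deposited table: ACAN, the cartilage proteoglycan, fell with SDF-1α (-0.88 ± 0.15), DES, a muscle filament gene, rose with it (1.64 ± 0.22), and COL1A2, a fibroblast collagen, fell with SKHS (-0.97 ± 0.07). Their part in the results below was not tested.

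With SDF-1α alone the 34 genes divided. MYBBP1A, NOP2, BOP1 and RRP12 fell by at least 1.5-fold, and no rise passed 1.28-fold. All 6 genes of the polymerase I machinery had negative values and 3 of them fell. All 5 genes grouped as box H/ACA (its core proteins and the snoRNP chaperone NOLC1) had positive values and 2 of them rose. In total 4 genes rose and 9 fell in SDF1 over DMSO, which is 38.2% of the 34, while 34.7% of all 18162 genes tested were called (17.2% higher and 17.5% lower). The share of calls in the list was therefore close to that of the whole table, which also holds genes measured with little precision. A test limited to the 13257 genes with an implied error of 0.5 or less, all 34 among them, called 48.5% (24.5% higher and 24% lower). Against those genes the list had a smaller share of calls, and of rises. The median log2 fold change of the list was -0.07, beside -0.01 for all genes.

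In the polymerase I machinery, the authors' deposited table gave POLR1A, which carries the catalytic site together with POLR1B, a log2 fold change of -0.31 ± 0.09 (adjusted p = 0.00247). POLR1B stood at -0.28 ± 0.11 there, just past the threshold (adjusted p = 0.047). TAF1D, a subunit of the selectivity factor that marks the promoter of the ribosomal DNA, fell by 0.33 ± 0.11 in the authors' deposited table (adjusted p = 0.0137). These 3 falls were each at most 1.26-fold. POLR1C, a subunit shared with RNA polymerase III, had -0.14 ± 0.12, RRN3, the initiation factor that brings the polymerase to the promoter, had -0.13 ± 0.10, and UBTF, the architectural protein that keeps ribosomal DNA open, had -0.06 ± 0.08. None of those last 3 deposited values passed the threshold.

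The multifunctional nucleolar proteins held both the largest fall and some of the rises. MYBBP1A, a Myb-binding protein that takes part in rRNA transcription and processing (chromosome 17, 4538897 to 4555631, minus strand, GRCh38), fell by 0.81 ± 0.10 in the authors' deposited table, or 1.76-fold (adjusted p = 1.71e-15). DDX21, an RNA helicase of rRNA transcription and processing, rose by 0.34 ± 0.12 there (adjusted p = 0.02). NPM1, the nucleolar chaperone nucleophosmin, rose by 0.26 ± 0.08 in the same deposited table (adjusted p = 0.00717). The annotation names 45 pseudogenes of NPM1, and how the authors' counting shared reads among them is not known. Nucleolin (NCL), an abundant RNA-binding protein of the nucleolus, had 0.15 ± 0.07, LYAR, a zinc finger protein of the nucleolus, 0.05 ± 0.12, and GNL3, the GTPase nucleostemin, -0.04 ± 0.09, and none of these deposited values passed.

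Deposited values of the box C/D proteins were all negative and those of the genes grouped as box H/ACA, NOLC1 included, all positive. Several of them were close to zero. Among box C/D proteins NOP56, a core scaffold protein, fell by 0.38 ± 0.07 in the authors' deposited table (adjusted p = 2.24e-06). Its partner NOP58 had -0.04 ± 0.09, the methyltransferase fibrillarin (FBL) had -0.02 ± 0.10, and RRP9, a protein of the U3 snoRNP, had -0.07 ± 0.11, and these deposited values did not pass. Among box H/ACA proteins NHP2 rose by 0.36 ± 0.10 (adjusted p = 0.00259) and NOP10 by 0.32 ± 0.11 (adjusted p = 0.0104) in the authors' deposited table. Both are small core proteins of the pseudouridylation complex. The other core protein GAR1 had 0.22 ± 0.14, the pseudouridine synthase DKC1 0.03 ± 0.09 and the snoRNP chaperone NOLC1 0.01 ± 0.08, none of them past the threshold. This contrast between the classes was not tested, and it did not hold after correction for the length and GC content of transcripts. DKC1 (-0.04), GAR1 (-0.10), NOP10 (-0.20) and NOLC1 (-0.03) were then negative as well, and RRP9 was at 0.00.

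Among subunit assembly factors only falls passed. NOP2, an rRNA cytosine methyltransferase of the large subunit (chromosome 12, 6556863 to 6568691, minus strand), fell by 0.74 ± 0.10, or 1.67-fold, in the authors' deposited table (adjusted p = 2.03e-11). BOP1, a scaffold of the complex it forms with PES1 and WDR12 for large subunit maturation, fell by 0.70 ± 0.11, or 1.62-fold (adjusted p = 6.91e-10). The deposited values of its partners were -0.10 ± 0.10 for PES1 and -0.21 ± 0.12 for WDR12, neither past the threshold. RRP12, an export factor of pre-ribosomes (chromosome 10, 97356358 to 97426076, minus strand), fell by 0.59 ± 0.11, or 1.51-fold, in the authors' deposited table (adjusted p = 2.38e-07). RRP1, whose yeast counterpart is needed for large subunit RNA processing, fell by 0.48 ± 0.11 there (adjusted p = 0.000129). The remaining assembly factors did not pass in this comparison. For the large subunit the deposited values were -0.16 ± 0.11 for RRS1, 0.08 ± 0.11 for NOP16 and 0.03 ± 0.11 for NIP7. For the small subunit the table gave -0.21 ± 0.12 for BYSL, -0.20 ± 0.10 for the acetyltransferase NAT10, 0.17 ± 0.11 for the helicase DDX10 and 0.09 ± 0.09 for NOP14.

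**Figure D1:**
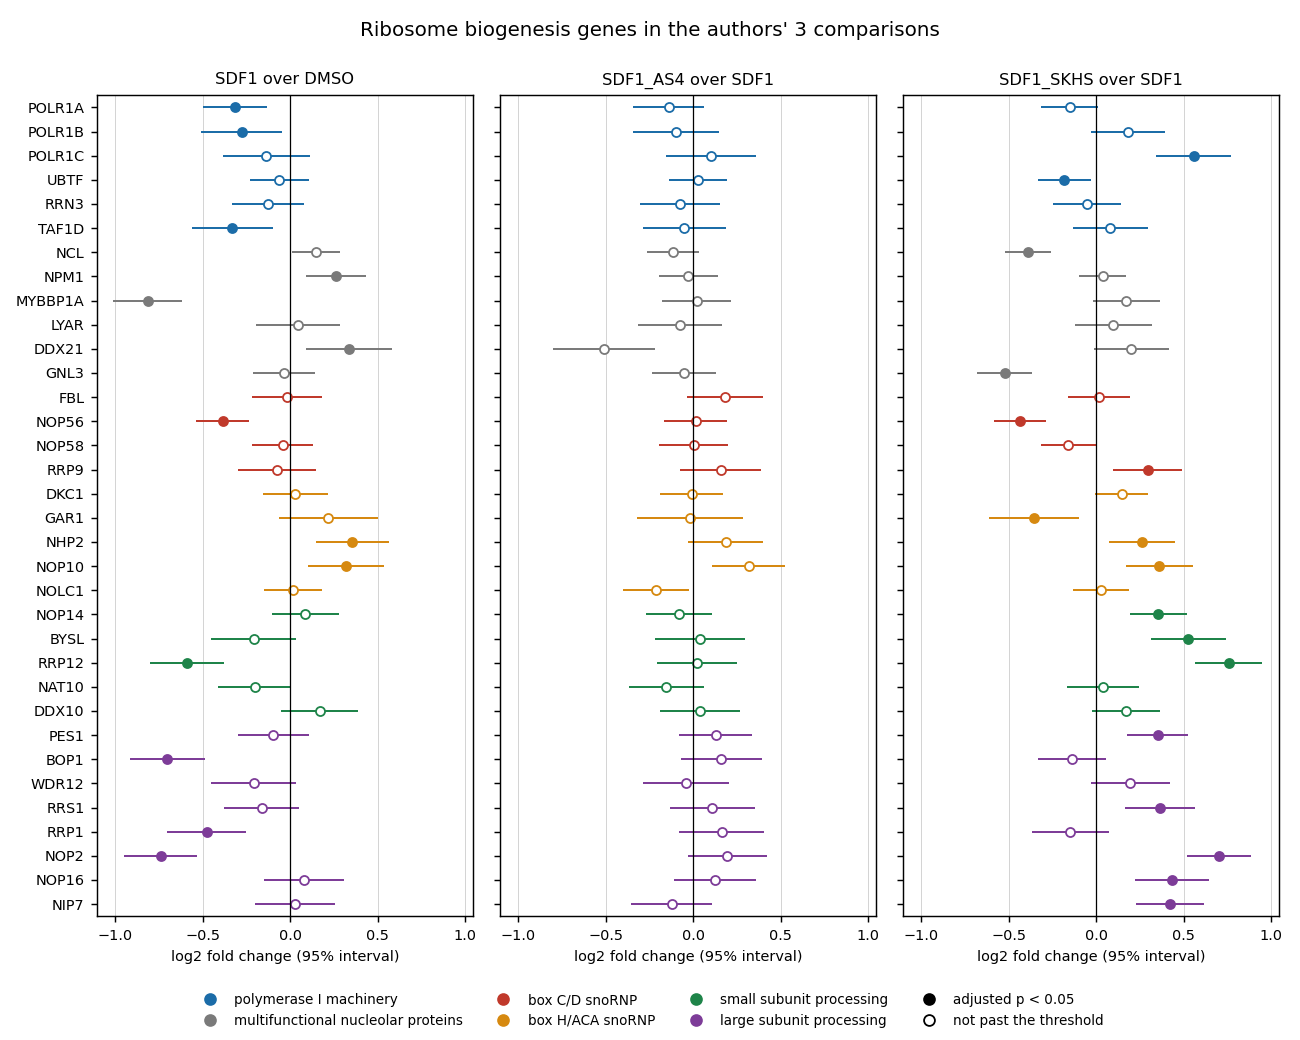
Log2 fold change of each of the 34 genes (x axis) with its 95% interval in the authors' 3 deposited comparisons, coloured by role, filled where the adjusted p was under 0.05. Falls of MYBBP1A, NOP2, BOP1 and RRP12 stand out on the left, all points of the middle panel are open, and most filled points of the right panel lie above zero.

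Fold changes in this comparison also ran with transcript length and GC content, with Spearman rho of -0.138 and -0.205 over 11752 genes measured precisely. After both trends were removed no gene of the list was called higher and 9 were called lower, while 31.6% of 17463 genes were called (15.4% higher and 16.2% lower). Of those 9, 7 were among the 9 that fell as deposited: POLR1B, TAF1D, MYBBP1A, NOP56, RRP12, BOP1 and NOP2. The falls of GNL3 (-0.21 ± 0.09, adjusted p = 0.0477) and NOP58 (-0.21 ± 0.09, adjusted p = 0.0407) were called only after removal. The median of the 34 genes moved to -0.19. None of the 4 rises kept its call, and NOP10, with the shortest transcript of the list (554 nt), turned to -0.20 ± 0.11 (adjusted p = 0.159). NHP2 went to 0.10 (adjusted p = 0.571) and NPM1 to 0.04 (adjusted p = 0.804). DDX21 moved little, from 0.34 to 0.29, and lost its call at an adjusted p of 0.0585. The falls of MYBBP1A and NOP2 were still called, at -0.54 and -0.66.

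**Figure D2:**
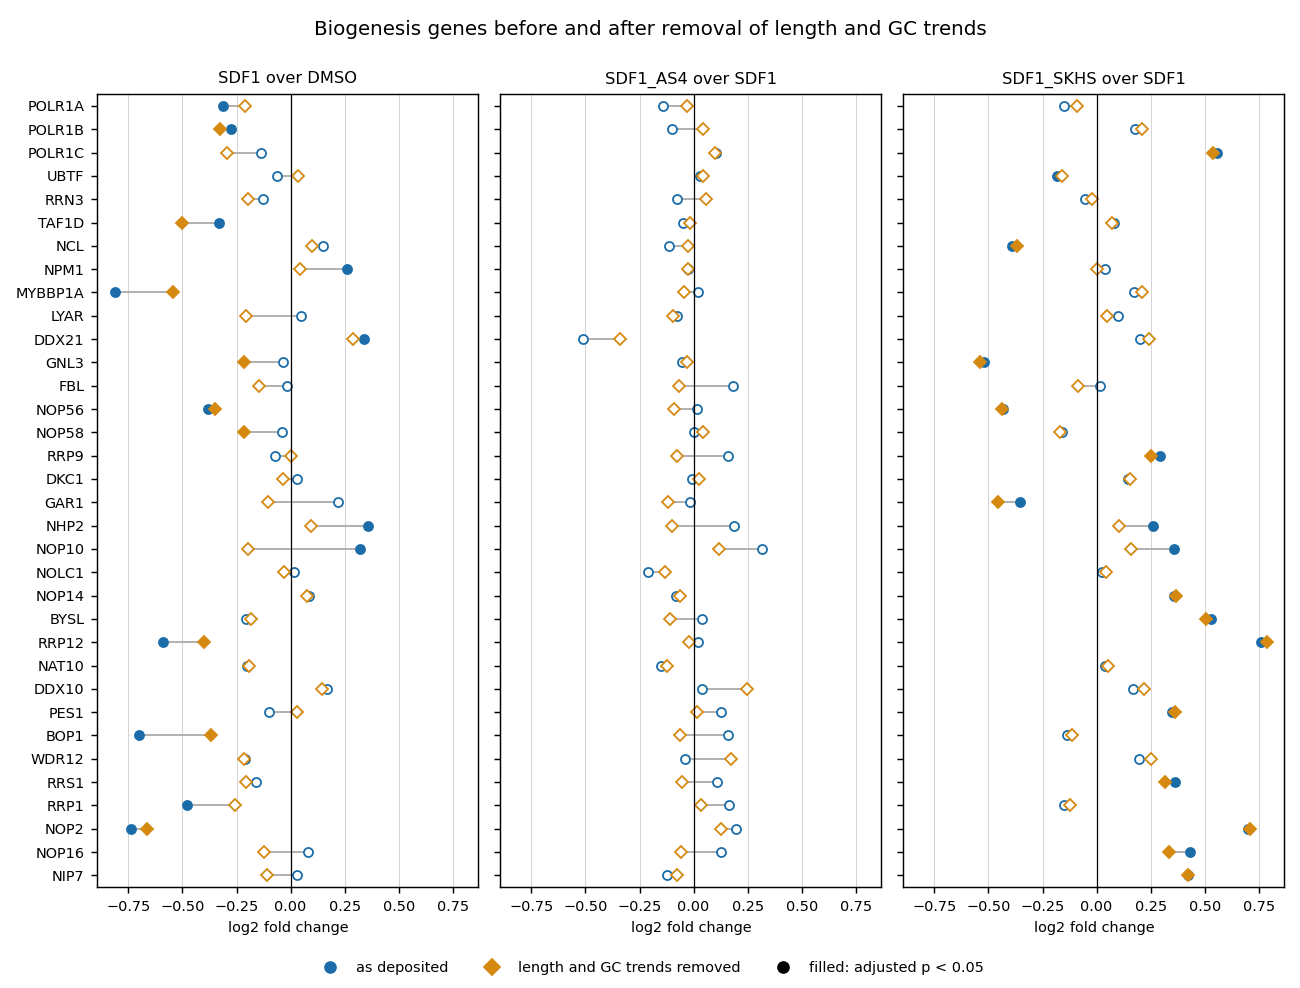
Log2 fold change of each gene (x axis) as deposited (circles) and after removal of the length and GC trends (diamonds), filled where the adjusted p was under 0.05, for the 3 deposited comparisons. NOP10 moves from 0.32 to -0.20 in SDF1 over DMSO, while NOP2 and RRP12 hardly move in SDF1_SKHS over SDF1.

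All 79 cytosolic ribosomal protein genes were higher with SDF-1α in the authors' deposited table, their median being 0.49 and the smallest adjusted p for RPL30 (0.67 ± 0.07, adjusted p = 9.07e-18). After removal of the trends 45 were called higher, none lower, and their median was 0.27. A list of 136 other biogenesis genes split, with 25 rising, 28 falling and a median of -0.00, and with the trends removed 14 rose and 32 fell of 133. Its falls with the smallest adjusted p in the authors' deposited table were those of TAF1C (-1.52 ± 0.09, adjusted p = 1.47e-56), a partner of TAF1D in the selectivity factor, the helicase DDX55 (-0.84 ± 0.12) and the large subunit factor RBM28 (-0.59 ± 0.08). Its rises with the smallest adjusted p were those of POLR2L (0.54 ± 0.09), a subunit common to all nuclear RNA polymerases, SBDS (0.42 ± 0.09), which helps to release a block on the large subunit, and TEX10 (0.46 ± 0.11). Of 21 RNA polymerase III genes 5 rose and 3 fell, and of 7 genes particular to RNA polymerase II 2 rose and none fell. MYC, a transcription factor that drives many biogenesis genes, had a deposited value of -0.01 ± 0.08 (adjusted p = 0.952).

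**Figure D3:**
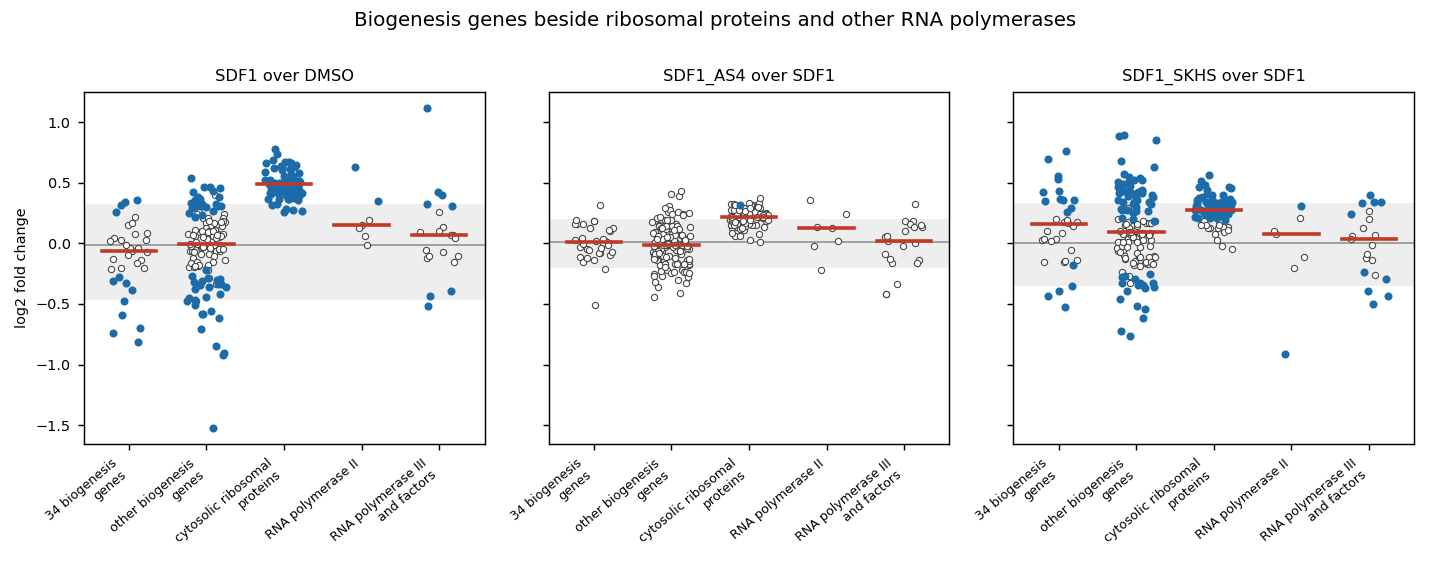
Log2 fold changes (y axis) of the 34 biogenesis genes beside 4 lists of related genes in the 3 deposited comparisons, with called genes filled, medians as red bars, and the median and interquartile range of all genes as a grey line and band. Ribosomal protein genes lie above zero in the first 2 panels, and all but 2 of them in the third. Their medians are 0.49, 0.21 and 0.28, while the biogenesis genes spread to both sides.

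Adding astragaloside IV to SDF-1α changed none of these transcripts past the threshold. In SDF1_AS4 over SDF1 none of the 34 genes was called by the authors' DESeq2 test, where 0.358% of 18133 genes tested were called (0.199% higher and 0.16% lower), and 3 genes had an unadjusted p under 0.05, as did 16.4% of all genes. After the trends were removed none was called again, where 0.166% of all genes were (0.138% higher and 0.0287% lower). Under a t distribution 0 of all 18133 genes were called, so that setting could call none of the 34. The whole 95% interval lay within a 1.5-fold change either way for 33 of the 34 genes, the exception being DDX21. That band also held 29 of the 34 in SDF1 over DMSO and 26 in SDF1_SKHS over SDF1, where many were called. It therefore does not separate smaller changes from none. The median in SDF1_AS4 over SDF1 was 0.01, equal to that of all genes at this rounding.

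DDX21 had the largest value, -0.51 ± 0.15 in the authors' deposited table, or 1.42-fold lower, with an adjusted p of 0.0569. In a test limited to the 13237 genes whose implied error was 0.5 or less, of which 1.44% were called, its adjusted p was 0.0427. Once length and GC trends were removed its value was -0.34 and its adjusted p 0.668. NOP10 had a deposited value of 0.32 ± 0.10 (adjusted p = 0.0861) and NOLC1 one of -0.21 ± 0.09 (adjusted p = 0.223). The trends were steepest in this comparison, with Spearman rho of -0.533 for transcript length and 0.59 for GC content over 11720 genes. The GC content of the transcript taken for DDX21 was 41.1%, below the table's median of 49.5%. Its part in the DDX21 value was not tested.

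By role, deposited values with astragaloside IV ran from -0.14 ± 0.10 (POLR1A) to 0.10 ± 0.13 (POLR1C) in the polymerase I machinery, and from 0.00 ± 0.10 (NOP58) to 0.18 ± 0.11 (FBL) among box C/D proteins. They ran from -0.15 ± 0.11 (NAT10) to 0.04 ± 0.11 (DDX10) for the small subunit and from -0.12 ± 0.12 (NIP7) to 0.19 ± 0.11 (NOP2) for the large subunit. MYBBP1A had a deposited value of 0.02 ± 0.10, RRP12 one of 0.02 ± 0.11 and BOP1 one of 0.16 ± 0.11. The genes that fell most with SDF-1α had no called change with the product. None of the 136 other biogenesis genes was called either, with 18 at an unadjusted p under 0.05. All 79 ribosomal protein genes had positive values with a median of 0.21, which fell to 0.05 after removal of the trends, and RPS26 alone was called in the authors' deposited table (0.32 ± 0.08, adjusted p = 0.0454).

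With the SKHS formula 8 of 13 subunit assembly factors rose and none fell. RRP12, NOP2, BYSL and POLR1C rose most, and GNL3, NOP56 and nucleolin fell. In SDF1_SKHS over SDF1, 12 of the 34 genes rose and 5 fell, together 50%, where 32.4% of 18251 genes tested were called (15.8% higher and 16.7% lower). All 34 were measured precisely. When only the 13266 genes with an implied error of 0.5 or less were tested, 46.1% were called (22.4% higher and 23.6% lower). The same 17 of the 34 were called there, so the 50% lay nearer to that share. The median of the 34 was 0.16, beside 0.00 for all genes. For small subunit factors 3 of 5 rose and none fell, with a median of 0.36, and for large subunit factors 5 of 8 rose and none fell, also with a median of 0.36. In both, the share of rises was above that of the whole table, and no test of that difference was made.

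Of the small subunit factors, RRP12 rose by 0.76 ± 0.09, or 1.69-fold, in the authors' deposited table (adjusted p = 3.24e-14). BYSL, the assembly factor bystin (chromosome 6, 41921188 to 41933046, plus strand), rose by 0.53 ± 0.11 there (adjusted p = 5.13e-06). NOP14, a nucleolar protein of the early small subunit particle, rose by 0.36 ± 0.08 in the deposited table (adjusted p = 4.64e-05). DDX10, at 0.17 ± 0.10, and NAT10, at 0.04 ± 0.10, were not called.

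Of the large subunit factors, NOP2 rose by 0.70 ± 0.09, or 1.62-fold, in the authors' deposited table (adjusted p = 2.41e-13). Smaller rises in that table were those of NOP16 (0.43 ± 0.11), NIP7 (0.42 ± 0.10), RRS1 (0.36 ± 0.10) and PES1 (0.35 ± 0.09), all nucleolar assembly factors, with adjusted p from 7.53e-05 to 0.00123. The complex of PES1, BOP1 and WDR12 did not move as a unit by calls, since PES1 rose while WDR12 had a deposited value of 0.20 ± 0.11 and BOP1 one of -0.14 ± 0.10, neither called. RRP1 had -0.15 ± 0.11 and was not called.

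The polymerase I machinery showed 1 rise and 1 fall. POLR1C (chromosome 6, 43509702 to 43562419, plus strand) rose by 0.56 ± 0.11, or 1.47-fold, in the authors' deposited table (adjusted p = 1.65e-06). UBTF fell by 0.18 ± 0.07 there (adjusted p = 0.0435). The deposited values of POLR1A (-0.15 ± 0.08), POLR1B (0.18 ± 0.10), RRN3 (-0.05 ± 0.10) and TAF1D (0.08 ± 0.11) were not called. The subunit shared with RNA polymerase III was thus the one called higher.

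Of the 5 falls, 2 were in multifunctional nucleolar proteins and 2 in snoRNP proteins, and 3 snoRNP proteins rose. GNL3 (chromosome 3, 52681156 to 52694492, plus strand) fell by 0.52 ± 0.08, or 1.44-fold, in the authors' deposited table (adjusted p = 2.3e-10). NOP56 (chromosome 20, 2652145 to 2658393, plus strand) fell by 0.43 ± 0.07 there (adjusted p = 3.89e-08). Nucleolin (chromosome 2, 231453531 to 231483641, minus strand) fell by 0.39 ± 0.06 in the same deposited table (adjusted p = 1.59e-08). GAR1 fell as well, by 0.36 ± 0.13 (adjusted p = 0.0202), while its partners in the same complex rose, NOP10 by 0.36 ± 0.09 and NHP2 by 0.26 ± 0.09, in the authors' deposited table. RRP9 rose by 0.29 ± 0.10 there (adjusted p = 0.0112). As deposited, members of the box H/ACA complex were thus called in opposite directions with SKHS. After correction for transcript length and GC content GAR1 kept its call (-0.46), but NHP2 (0.10) and NOP10 (0.16) did not. Not called were the deposited values of DDX21 (0.20 ± 0.11), MYBBP1A (0.17 ± 0.09), LYAR (0.10 ± 0.11), NPM1 (0.04 ± 0.07), NOP58 (-0.16 ± 0.08), FBL (0.02 ± 0.09), DKC1 (0.14 ± 0.07) and NOLC1 (0.03 ± 0.08).

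Trends with length and GC content were weaker here, with Spearman rho of -0.107 and 0.0402. After their removal 10 of the 34 genes were called higher and 4 lower, all among the 17 called before, where 32.1% of 17548 genes were called (15.9% higher and 16.2% lower). NHP2 (0.10, adjusted p = 0.471), NOP10 (0.16, adjusted p = 0.21) and UBTF (-0.16, adjusted p = 0.0869) lost their calls.

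Related genes gave a similar mix with SKHS. Of the 136 other biogenesis genes 51 rose and 18 fell, with a median of 0.09. The rises with the smallest adjusted p in the authors' deposited table were those of RSL24D1 (0.89 ± 0.08, adjusted p = 1.07e-24), SENP3 (0.68 ± 0.08) and RRP15 (0.85 ± 0.11), which all act on the large subunit. The falls with the smallest adjusted p were those of GNL2 (-0.77 ± 0.08, adjusted p = 4.36e-19), a GTPase related to GNL3, TCOF1 (-0.72 ± 0.09), the treacle protein that supports polymerase I transcription, and IMP3 (-0.62 ± 0.09), a protein of the U3 snoRNP. Ribosomal protein genes were higher in 62 of 79 cases, with none lower and a median of 0.28, and in 37 cases with 1 lower once the trends were removed. Of RNA polymerase III genes 5 rose and 5 fell of 21. In RNA polymerase II the large subunit POLR2A fell by 0.91 ± 0.09 and POLR2J rose by 0.31 ± 0.09 in the authors' deposited table. Among transcription factors of the MYC network, MYC fell by 0.61 ± 0.08 (adjusted p = 1.17e-13), MXD3, which competes with it, fell by 2.14 ± 0.13, and MXD1, another competitor, rose by 0.65 ± 0.15, all from the authors' deposited table.

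CACGTG, the E-box that MYC and its partner MAX bind, was searched in the promoters because MYC fell while many of these genes rose. RefSeq promoters of GRCh38.p14, from 250 bases before to 50 after the annotated start, matched 29 of the 34 genes by symbol. NOP58, NOLC1, RRP12, BOP1 and RRS1 had none in the table. The motif reads the same on both strands, so each site was counted once. It was present in 9 of the 29 promoters (31.0%), against 1344 of 14795 promoters of all genes of the table (9.08%), 31 of 117 for the other biogenesis genes (26.5%) and 3 of 63 for ribosomal protein genes (4.76%). RNA polymerase III genes had it in 6 of 16 promoters (37.5%), so the motif was not particular to the biogenesis genes. Regulators of ribosome biogenesis had it in 2 of 10 (20.0%) and RNA polymerase II genes in 0 of 4. The windows around each site follow, to show where in the promoter the motif lies in the 9 genes, with the E-box in capitals, 12 flanking bases on each side where the promoter reached that far, and the strand of the gene.

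MYBBP1A: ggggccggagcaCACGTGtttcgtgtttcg

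FBL: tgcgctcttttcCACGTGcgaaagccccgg

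RRP9: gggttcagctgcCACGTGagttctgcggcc

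NOP10 (upstream site): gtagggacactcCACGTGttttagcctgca

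NOP10 (site at the start): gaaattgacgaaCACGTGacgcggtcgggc

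NOP14: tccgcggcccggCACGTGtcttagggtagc

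BYSL: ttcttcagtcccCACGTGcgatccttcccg

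NAT10: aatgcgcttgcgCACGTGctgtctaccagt

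PES1: tccttggcagggCACGTGcgggaggaagtg

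NOP2: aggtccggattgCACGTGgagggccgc

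Apart from the upstream NOP10 site, whose first base lay at position -170 from the start, every site began between positions -15 and 36. On GRCh38.p14 the window of NOP2 is chr12:6568242-6568268 (minus strand), that of BYSL chr6:41921515-41921544 (plus strand), and those of NOP10 chr15:34343289-34343318 and chr15:34343130-34343159 (minus strand). The window of MYBBP1A is chr17:4555340-4555369 and that of NOP14 chr4:2963374-2963403, both on the minus strand. In SDF1_SKHS over SDF1 the 9 genes with the motif all had positive deposited values, 6 of them called higher (RRP9, NOP10, NOP14, BYSL, PES1 and NOP2) and none lower, with a median of 0.35. The 20 genes with a promoter and no such motif had 4 called higher, 5 lower and a median of 0.09. Of all genes tested there, 15.8% were called higher and 16.7% lower. In SDF1 over DMSO the 9 genes had 1 called higher, 2 lower and a median of -0.10. Of all genes tested in SDF1 over DMSO, 17.2% were called higher and 17.5% lower. A match is a run of letters and not a measured binding site, and the difference between the 2 sets of genes was not tested.

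Several of the genes have snoRNA genes within their bounds on the same strand, and are called hosts here. Whether these snoRNA genes lie in introns was not checked. In the GENCODE 29 annotation 29 snoRNA genes or models lay inside 7 of the 34 genes, 8 in TAF1D, 6 in GNL3, 5 in NOP56, 4 in NOP58, 3 in NCL, 2 in DKC1 and 1 in POLR1C. With SKHS 3 of these 7 hosts fell (GNL3, NOP56 and NCL), 1 rose (POLR1C), and their median was -0.16. Among the other 27 genes 11 rose and 2 fell, with a median of 0.18. Of all genes tested 15.8% were called higher and 16.7% lower with SKHS. Those with an error of 0.5 or less gave 22.4% and 23.6%. With SDF-1α 2 of the 7 hosts fell and none rose, and of the other 27 genes 4 rose and 7 fell. All genes tested gave 17.2% higher and 17.5% lower there, and those with an error of 0.5 or less 24.5% and 24%. The shares of falls in hosts and other genes were thus alike with SDF-1α. The difference between hosts and other genes was not tested.

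Some of the 34 genes overlap other genes. The annotation placed another gene's exons over those of 14 of the 34 genes, and whether the library or the counting kept strand is not given in the sources used here. HIGD2A, opposite NOP16, was also higher with SKHS (0.25 ± 0.09, adjusted p = 0.0165), whereas COG8, opposite NIP7, fell by 0.70 ± 0.12 and XPO5, opposite POLR1C, fell by 0.23 ± 0.08, each in the authors' deposited table. GLT8D1, opposite GNL3, had a deposited value of 0.04 ± 0.09. LRRC73, also opposite POLR1C, had 0.27 ± 0.93, and YIPF3, opposite the same gene, had -0.05 ± 0.08, neither called. With SDF-1α CEP295, opposite TAF1D, fell by 0.53 ± 0.14 in the deposited table (adjusted p = 0.000863), as TAF1D did. With SKHS CEP295 was lower again (-0.82 ± 0.15) and TAF1D was not called. RMND5B, opposite NHP2, was lower with SKHS (-0.30 ± 0.12) while NHP2 rose. Called with SDF-1α were also HIGD2A (0.48 ± 0.10), TCN2, opposite PES1 (-0.50 ± 0.19), and CARF, opposite WDR12 (-0.66 ± 0.21). NOP16, PES1 and WDR12 were not called in that comparison. The part of overlapping genes in these values was not tested.

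The products were set against each other by the difference of their deposited fold changes, since each was compared with the same SDF1 cultures. The standard error used is an upper bound, which adds both implied variances. In SDF1_SKHS over SDF1_AS4, 7 of the 34 genes were higher and 3 lower, where 18.9% of 17927 genes tested were called (8.5% higher and 10.4% lower), and the median was 0.14, beside -0.02 for all genes. These calls were 29.4% of the 34. Tested alone, the 12385 genes with an error of 0.5 or less had 29.5% called (13.5% higher and 16% lower). RRP12 was 1.67-fold higher (0.74 ± 0.15, adjusted p = 1.39e-05). DDX21 was 1.64-fold higher (0.71 ± 0.18, adjusted p = 0.00095), although it was called in neither product's comparison with SDF1, where its deposited values were 0.20 with SKHS and -0.51 with astragaloside IV. NIP7 was higher by 0.55 ± 0.15 (adjusted p = 0.00282), NOP2 by 0.51 ± 0.14, BYSL by 0.49 ± 0.17, POLR1C by 0.46 ± 0.17 and NOP14 by 0.44 ± 0.12. Small subunit factors made up 3 of the 7. Lower with SKHS than with astragaloside IV were GNL3 (-0.47 ± 0.12, adjusted p = 0.000944), NOP56 (-0.45 ± 0.11, adjusted p = 0.00111) and nucleolin (-0.28 ± 0.10, adjusted p = 0.0266). The same 10 genes were called after removal of both trends, where 17.8% of 17246 genes were called (8.07% higher and 9.78% lower), with DDX21 at 0.59 and RRP12 at 0.81. For the genes that were not called the interval of the difference was often wide, and it lay within 1.5-fold either way for 20 of the 34. Of the 79 ribosomal protein genes 1 was called higher and none lower, with a median of 0.06.

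**Figure D4:**
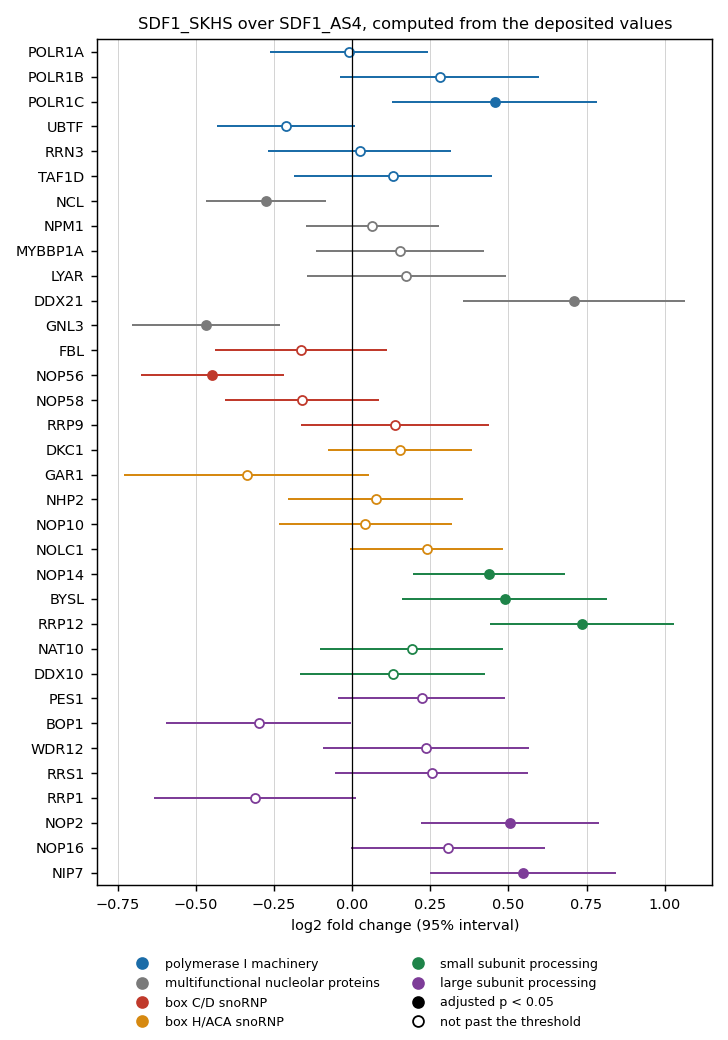
Log2 fold change of each gene in SDF1_SKHS over SDF1_AS4 (x axis), computed from the deposited comparisons, with the 95% interval from the upper bound of the standard error, coloured by role and filled where the adjusted p was under 0.05. RRP12 and DDX21 lie furthest to the right at 0.74 and 0.71, and GNL3 and NOP56 furthest to the left.

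Against DMSO, each product group was placed by the sum of 2 deposited fold changes, again with the upper bound of the standard error. For the SDF1_AS4 group 2 of the 34 genes were higher and 6 lower, where 22.4% of 17895 genes tested were called (10.8% higher and 11.6% lower). A test of only the 12374 genes with an error of 0.5 or less called 34.9% of them and 9 of the 34. NHP2 (0.54 ± 0.15) and NOP10 (0.64 ± 0.15) were higher. Those lower were MYBBP1A (-0.79 ± 0.14, adjusted p = 3.01e-07), RRP12 (-0.57 ± 0.16), NOP2 (-0.54 ± 0.15), BOP1 (-0.54 ± 0.16), POLR1A (-0.45 ± 0.13) and NOP56 (-0.37 ± 0.12). With the trends removed none was higher and 6 were lower, where 17.8% of 17218 genes were called (8.31% higher and 9.5% lower), and NHP2 and NOP10 turned to -0.02 and -0.10. These 6 were not all the same genes. POLR1A lost its call (-0.26, adjusted p = 0.19), and TAF1D was called only after removal (-0.54, adjusted p = 0.0085).

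For the SDF1_SKHS group 8 genes were higher and 7 lower than in DMSO. Of all 17936 genes tested there, 37.2% were called (18.1% higher and 19.1% lower). A test of only the 12387 genes with an error of 0.5 or less called 54.1% of them (26.8% higher and 27.3% lower). It called 16 genes of the list, so against those genes the list had a smaller share of calls. NOP10 (0.68 ± 0.14, adjusted p = 1.27e-05), NHP2 (0.62 ± 0.14, adjusted p = 4.82e-05) and DDX21 (0.54 ± 0.16, adjusted p = 0.00354) had the largest rises, followed by NOP16, NIP7, NOP14, POLR1C and NPM1 at 0.51 to 0.30. BOP1 (-0.84 ± 0.14, adjusted p = 3.79e-08), NOP56 (-0.82 ± 0.10, adjusted p = 9.95e-14) and MYBBP1A (-0.64 ± 0.14, adjusted p = 1.29e-05) had the largest falls, followed by RRP1, GNL3, POLR1A and NCL at -0.63 to -0.24. After removal of the trends 5 were higher and 10 lower, 9 of them among the 15 called before, where 35.9% of 17255 genes were called (17.5% higher and 18.3% lower), and NOP10 turned to -0.03. The median was 0.02, and removal of the trends turned it to -0.01.

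Placed on this scale, the genes that fell with SDF-1α ended at different levels with SKHS. NOP2 stood at -0.74 in SDF1, -0.54 in SDF1_AS4 and -0.04 ± 0.14 in SDF1_SKHS, all relative to DMSO. RRP12 stood at -0.59, -0.57 and 0.17 ± 0.14 in the same order. Neither was called against DMSO with SKHS as summed from the deposited values, but with the trends removed RRP12 was called higher than in DMSO, at 0.38 (adjusted p = 0.0224), and NOP2 stood at 0.04. MYBBP1A stood at -0.81, -0.79 and -0.64, and BOP1 at -0.70, -0.54 and -0.84, so both were below DMSO in every group. NOP56 stood at -0.38, -0.37 and -0.82, the lowest of them with SKHS. The 3 values of a gene share cultures, because each of them is relative to the same 3 DMSO cultures. They are therefore given side by side and not as independent results.

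**Figure D5:**
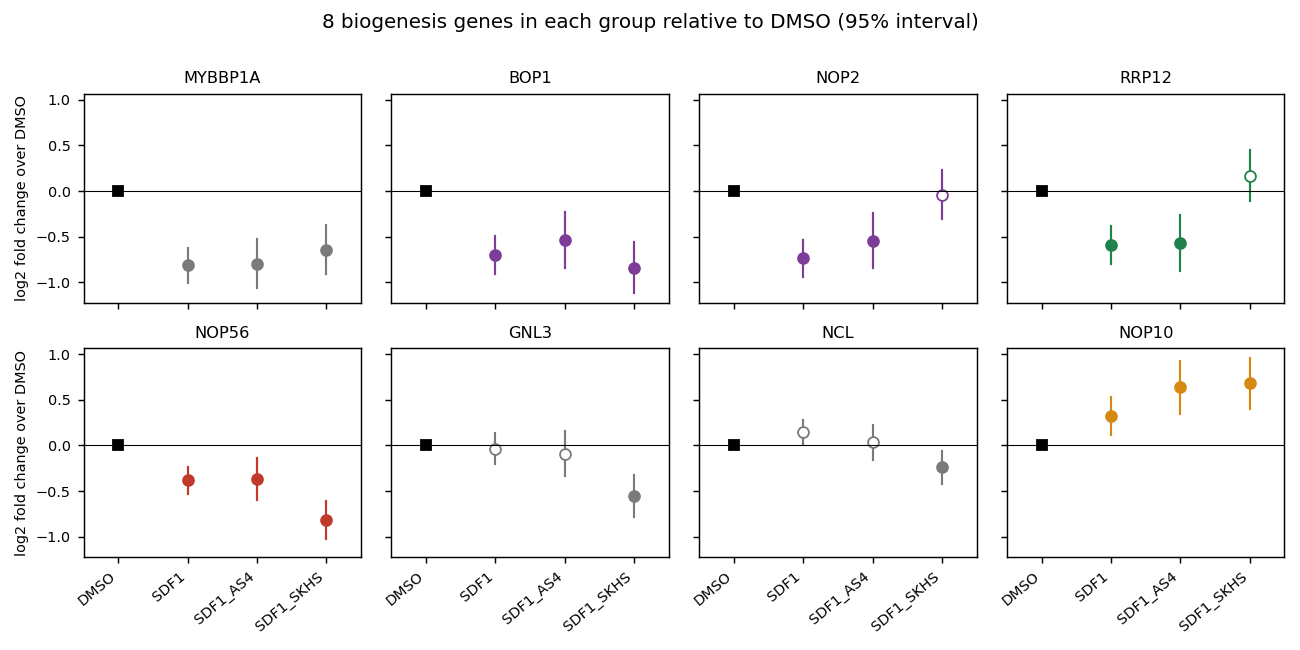
Log2 fold change over DMSO (y axis) of 8 genes in each group with 95% intervals, DMSO being the zero line by definition, filled where the adjusted p was under 0.05. NOP2 and RRP12 are open points with SKHS, at -0.04 and 0.17, MYBBP1A and BOP1 stay below it in all 3 groups, and NOP56 and GNL3 are lowest with SKHS.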

How the data were processed

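Per the labels, total RNA was extracted with Trizol and libraries were made with a BGI kit. Per the submitters' processing notes, Bowtie2 2.2.5, RSEM 1.2.12, DESeq2 1.4.5 and GRCh38.p13 were used, in an order the notes do not give. The authors deposited 1 table of 3 comparisons, each with log2 fold changes, p-values and q-values, and the q-value equals the Benjamini-Hochberg adjustment of the p-value to within 1.29e-14. A gene with no value in a comparison was taken as unread in both its groups, which fixes its sign in the others; 1046 values had that sign and 0 the opposite one.

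Implied standard errors were obtained by dividing the absolute fold change by the quantile of the normal distribution that matches the p-value. Comparisons that the table lacks were sums or differences, with both variances added. Trends were removed by a spline fit on length and GC content from GENCODE 29, in which 95.8% of symbols were found, with 4 degrees of freedom, fitted on precise genes, those whose implied error was 0.3 or less. The 34 genes and the lists were chosen with earlier results of these data known, so they carry no independent support. Every gene of the 34 is named, and other lists give up to 3 genes per direction with the smallest adjusted p. The E-box and the genes of the plot over DMSO were chosen after values had been seen, as were the overlapping genes named. The tools were matplotlib 3.10.9, patsy 1.0.2, statsmodels 0.14.6, pandas 2.3.3, scipy 1.17.1 and numpy 2.4.6 under Python 3.11.15. Alternatives are given in the closing section.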

Additional observations from a re-analysis of the deposited data

How the results depend on the processing

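No paired analysis was possible because the table holds no values per culture, and for the same reason no culture could be left out in turn. Reading p from a t distribution (4 degrees of freedom), calls among the 34 genes dropped to 3 for SDF1 over DMSO (MYBBP1A, BOP1 and NOP2) and 4 for SDF1_SKHS over SDF1 (NCL, GNL3, RRP12 and NOP2), where 6.01% and 7.4% of all genes were called. They dropped to 0 for SDF1_SKHS over SDF1_AS4 and for SDF1_AS4 over DMSO, and to 2 for SDF1_SKHS over DMSO (NOP56 and BOP1), where 13.4% of all genes were called. No gene of the whole table was called in the first pair of these or in SDF1_AS4 over SDF1 under that distribution. Under the normal distribution 11 and 12 of the 34 genes in that pair had an unadjusted p under 0.05, beside 27.3% and 30.7% of all genes. With Bonferroni adjustment the calls were 5 for SDF1 over DMSO, 7 for SDF1_SKHS over SDF1, 1 for SDF1_SKHS over SDF1_AS4, 1 for SDF1_AS4 over DMSO and 5 for SDF1_SKHS over DMSO, where 13.3%, 12.8%, 5.62%, 6.17% and 15.7% of all genes were called. Restricting the test to an implied error of 0.5 or less gave 1 call (DDX21) in SDF1_AS4 over SDF1. Taking an assumed shared SDF1 part out of the standard error gave 13 calls in SDF1_AS4 over DMSO, where 34.3% of all genes were called. Removing length and GC trends moved the median from -0.07 to -0.19 in SDF1 over DMSO and from -0.07 to -0.22 in SDF1_AS4 over DMSO, and turned it to -0.031 in SDF1_AS4 over SDF1. In SDF1_SKHS over DMSO the median was -0.0073 after this removal and -0.012 after centring on precisely measured genes. Under the removal NOP10 turned to -0.20 in SDF1 over DMSO, -0.10 in SDF1_AS4 over DMSO and -0.032 in SDF1_SKHS over DMSO, and NHP2 to -0.020 in SDF1_AS4 over DMSO. The cause of these changes was not tested. Centring moved the median to -0.11 in SDF1 over DMSO and from 0.0085 to 0.017 in SDF1_AS4 over SDF1. The remaining counts and medians stayed within 1.5 times. With no counts in the table, what depth limits is unknown, and the widest interval among the 34 genes belonged to GAR1 in each deposited comparison.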
